A study of Mus musculus with 7 samples.

Results

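This report concerns 10 genes of nicotinamide methylation and NAD synthesis in mouse liver: Nnmt, Nampt, Naprt, Nadsyn1, Nmrk1, Qprt, Haao, Kmo, Acmsd and Aox1. They were picked out of the count table by symbol, and all 10 were found among its 37620 gene rows. The set was chosen from earlier results of these same libraries, in which the differences between the groups were already known. The group differences of these 10 genes are therefore given as descriptions, with no p-value. RNA from whole liver of C57BL/6 mice was sequenced after the mice had eaten a Western diet for 30 weeks, and the diet was common to both groups. The labels name the groups H-TBA, for high total bile acids (4 libraries), and L-TBA, for low (3 libraries). No transgene, drug or other treatment is named for either group. What level of bile acids divided the groups, and how old the mice were, is unstated in the sources used here. Nor do the labels say that each library was a separate mouse, so the spread between libraries may be partly technical.

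NAD carries electrons in oxidation reactions and is also used up by sirtuins, poly(ADP-ribose) polymerases and NAD glycohydrolases. Liver makes it from tryptophan by the kynurenine route, from nicotinic acid by the Preiss-Handler route, and from nicotinamide or nicotinamide riboside by salvage. Nicotinamide can leave this cycle when nicotinamide N-methyltransferase, the product of Nnmt, methylates it with S-adenosylmethionine. Aldehyde oxidase then turns N-methylnicotinamide into pyridones that are excreted.

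Libraries held from 9996990 to 12152613 counts. Levels are CPM, counts scaled to the size of the library and by TMM, edgeR's adjustment for library composition, and every log2 fold change is H-TBA over L-TBA with its standard error (SE). Among the libraries, H-TBA 1 stood nearest to L-TBA on the first principal component (10.7, against 34.6 to 43.5 in the other H-TBA libraries and -45.2 to -36.8 in L-TBA). Hepatocyte markers were abundant throughout, but their summed level was lower in H-TBA (53319 to 60345 CPM) than in L-TBA (62122 to 69791 CPM). The gap between these ranges depends on the TMM scaling. Most of each sum was Alb, which overlapped between the groups, at 35078 to 39611 CPM in H-TBA and 37838 to 45911 CPM in L-TBA. Of 7 tested, 2 fell, Apoa2 (-0.84 ± 0.13, adjusted p = 0.00115 by edgeR) and Ttr (-0.45 ± 0.11, adjusted p = 0.0113), while Alb did not pass (-0.14 ± 0.13, adjusted p = 0.473).

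Of the 10 genes, Nnmt and Acmsd stood apart between the groups and the other 8 did not. Both were higher in H-TBA, Nnmt by 3.61-fold and Acmsd by 6.69-fold between group means. The log2 fold changes of the other 8 lay between -0.33 and 0.18. By edgeR's quasi-likelihood test over all 15249 tested genes, 2 of the 10 were past an adjusted p of 0.05, both higher and 0 lower, where 23.9% of all tested genes were past it. At an unadjusted p of 0.05, 2 of the 10 were lower. DESeq2 had 0 lower and limma-voom 1, which was Kmo. The median log2 fold change was -0.10 for the 10 genes and 0.00 for all tested genes. For 2 of the 10 genes no H-TBA library fell inside the L-TBA range or the reverse, and 33.5% of all tested genes had groups apart in this way. Nothing is read from these counts, since the comparison was known when the genes were chosen. In bulk tissue, a change in the number of cells that hold a transcript and a change in the amount per cell cannot be told apart.

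**Figure D1:**
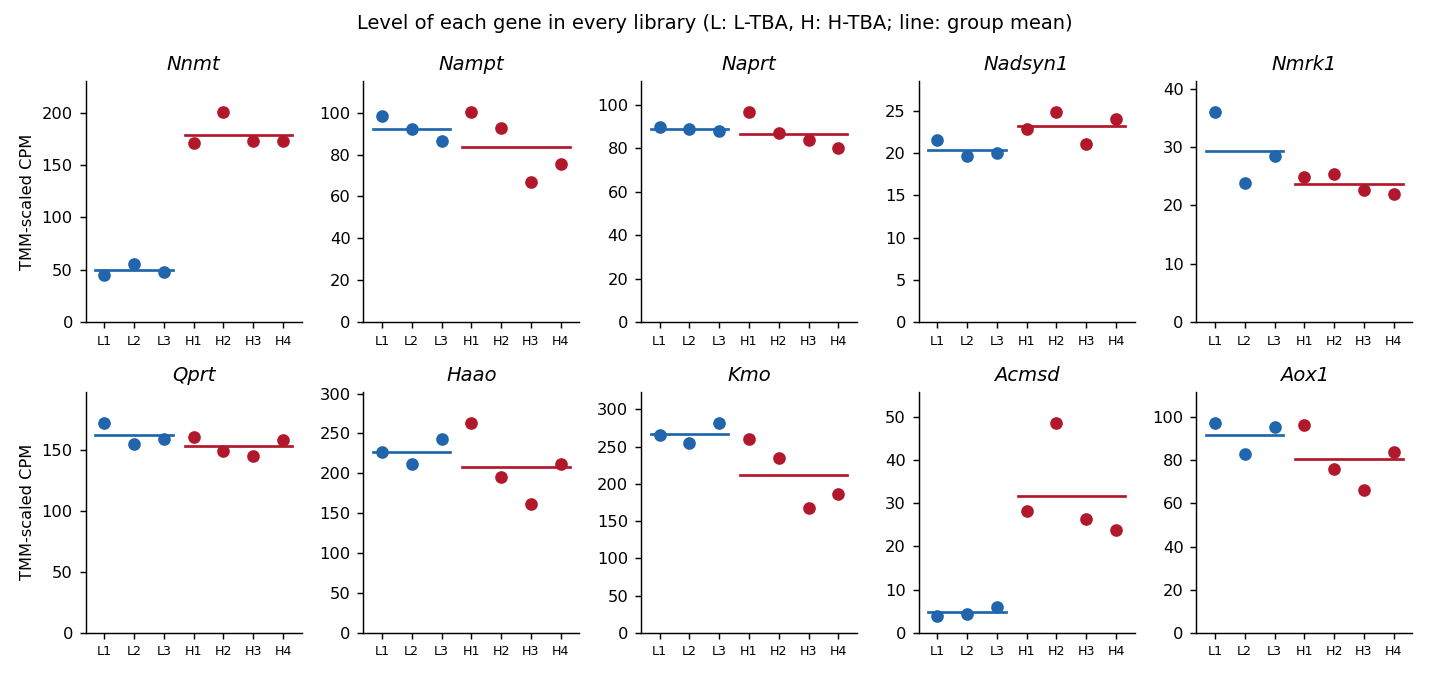
TMM-scaled CPM of each of the 10 genes (y axis, from 0) in the 3 L-TBA libraries (blue) and 4 H-TBA libraries (red), with a line at each group mean. Nnmt and Acmsd have every red point above every blue point, and the groups of the other 8 genes overlap.

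Nnmt (ENSMUSG00000032271), the methyltransferase itself, was at 171, 200.1, 172 and 172.5 CPM in H-TBA 1 to 4 and at 45.0, 55.6 and 48.2 CPM in L-TBA 1 to 3. Every H-TBA library lay above every L-TBA library, and the libraries of each group lay close together. The means were 179 ± 14.1 CPM (SD, n = 4) and 49.6 ± 5.46 CPM (SD, n = 3), with a log2 fold change of 1.85 ± 0.10. H-TBA 1, the library nearest to L-TBA over all genes, was beside H-TBA 3 and 4 in Nnmt, and the log2 fold change was 1.87 without H-TBA replicate 1. The libraries held between 481 and 2132 counts of this gene, and none of the 50-base words of its longest coding transcript recurred in another gene.

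Acmsd (ENSMUSG00000026348) encodes the decarboxylase that takes an intermediate of the kynurenine route away from quinolinate, and so from NAD. Its levels were 28.1, 48.5, 26.3 and 23.9 CPM in H-TBA 1 to 4 and 3.80, 4.40 and 6.01 CPM in L-TBA 1 to 3. The groups did not overlap, and H-TBA 2 was the highest of all. The means were 31.7 ± 11.3 CPM (SD, n = 4) and 4.74 ± 1.14 CPM (SD, n = 3), with a log2 fold change of 2.74 ± 0.27, the largest among the 10 genes, and 2.80 without H-TBA replicate 1. Counts ran from 44 to 496 per library. In the GENCODE M21 gene models, 94 of its 2831 exonic bases lie opposite a noncoding antisense gene, and whether the counting used strand is unstated in the sources used here.

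The start-site window of Qprt, whose enzyme uses quinolinate on the way to NAD, is shown because it holds a match to a motif searched. The window runs from 250 bases before to 50 after the gene's start, from RefSeq on GRCm38.p6, at chr7:127121980-127122279 on the minus strand. Capitals mark the match, a STAT motif.
Qprt: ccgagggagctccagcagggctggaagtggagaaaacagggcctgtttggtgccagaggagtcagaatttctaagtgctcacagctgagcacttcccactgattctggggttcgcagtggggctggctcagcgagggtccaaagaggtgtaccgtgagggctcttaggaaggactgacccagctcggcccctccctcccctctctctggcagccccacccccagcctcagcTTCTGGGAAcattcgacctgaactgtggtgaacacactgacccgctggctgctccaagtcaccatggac

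The search covered, on both strands, the E-box CACGTG, the D-box TTATGTAA, an HNF4 motif CAAAGTCCA, a STAT motif TTCNNNGAA and the nuclear receptor half-site AGGTCA. Windows of 7 of the 10 genes were searched: Nampt, Nadsyn1, Nmrk1, Qprt, Haao, Kmo and Aox1. The Qprt window held the STAT motif 19 bases before the start, the only STAT match among the 7, and 8.30% of all 32851 windows held one. The half-site was in 2 of the 7 windows, Nampt and Haao, and in 16.3% of all windows. None of the 7 windows held the E-box, D-box or HNF4 letters, which 7.15%, 0.938% and 0.475% of all windows held. Letters alone do not show that a factor binds.

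The other kynurenine route genes among the 10 differed little between the groups. Kmo, the kynurenine 3-monooxygenase, was at 260.2, 235, 168 and 186 CPM in H-TBA 1 to 4 and at 265, 255 and 281 CPM in L-TBA, with a log2 fold change of -0.33 ± 0.14. H-TBA 1 lay within the L-TBA range and the other 3 lay below it. Haao, which makes the intermediate that Acmsd and the quinolinate branch share, was at 263, 195, 162 and 212 CPM against 227, 212 and 243 CPM (-0.13 ± 0.14). Its H-TBA libraries spread on both sides of L-TBA. Qprt, the quinolinate phosphoribosyltransferase, was at 160.5, 149, 145 and 158.5 CPM against 172, 155 and 159 CPM (-0.08 ± 0.08). With library totals in place of TMM the small differences of Haao, Qprt and Naprt turned sign, to 0.02, 0.07 and 0.12, and that of Nampt was 0.00.

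Levels of different genes can be set side by side only per length, as CPM per kb of exon. The length is that of all annotated exons of a gene, which can exceed a single transcript. It was 4681 bases for Haao against 1381 in its longest coding transcript, 2645 against 2050 for Qprt, and 8690 against 4423 for Aox1. Ranks and ratios between genes depend on this choice of length, whereas the comparison of a ratio between the groups does not. Within a library, Acmsd per kb was between 0.141 and 0.304 of Qprt in H-TBA and between 0.0206 and 0.0353 of Qprt in L-TBA. The range for Haao over Qprt was 0.632 to 0.926 in H-TBA and 0.746 to 0.862 in L-TBA. Thus the ratio between the branch enzyme and Qprt did not overlap between groups, whereas the ratio between Haao and Qprt did. These ratios restate the levels given above and add no test, since Acmsd was chosen with its difference known.

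**Figure D2:**
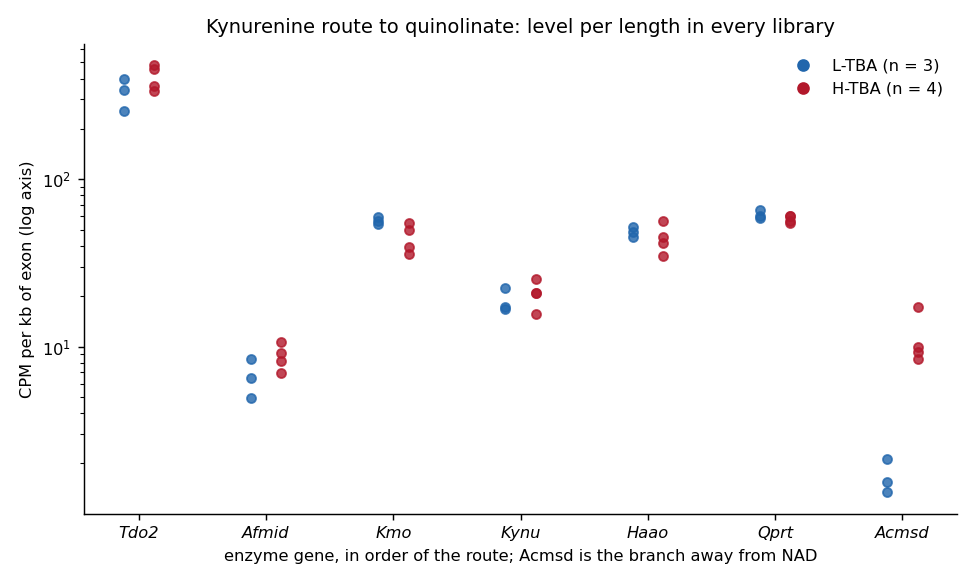
CPM per kb of exon (log axis) for genes of the kynurenine route in order of their steps, with Acmsd as the branch, in each L-TBA (blue) and H-TBA (red) library. Only Acmsd, of the 7 genes drawn, has groups that do not overlap.

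Salvage and Preiss-Handler genes overlapped between the groups. Nampt, the rate-limiting enzyme of salvage from nicotinamide, was at 100.1, 92.5, 66.8 and 75.5 CPM in H-TBA 1 to 4 and at 98.2, 92.0 and 86.4 CPM in L-TBA (log2 fold change -0.14 ± 0.13). H-TBA 3 and 4 lay below L-TBA and H-TBA 1 above it. Nmrk1, the nicotinamide riboside kinase, was between 22.0 and 25.3 CPM in H-TBA and between 23.8 and 35.9 CPM in L-TBA (-0.31 ± 0.13). That difference leaned on L-TBA 1, its highest library, and was -0.14 without L-TBA replicate 1. Naprt, the first enzyme of the Preiss-Handler route, was between 79.9 and 96.5 CPM in H-TBA and between 88.0 and 90.0 CPM in L-TBA (-0.03 ± 0.08). In GENCODE M21, 277 of its 2344 exonic bases are shared with exons of its neighbour Eef1d on the same strand, so reads there may have been counted for either gene or neither. Nadsyn1, the NAD synthetase that ends the Preiss-Handler and kynurenine routes, was between 21.1 and 24.8 CPM against 19.7 to 21.6 CPM (0.18 ± 0.09).

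Aox1, an aldehyde oxidase, was at 96.5, 75.9, 66.2 and 83.6 CPM in H-TBA 1 to 4 and at 97.2, 82.7 and 95.4 CPM in L-TBA (log2 fold change -0.19 ± 0.12). Its paralog Aox3 was the more abundant aldehyde oxidase per kb, at 4.82 to 6.25 times Aox1 in H-TBA and 4.09 to 5.24 times in L-TBA, and did not pass the test (0.03 ± 0.12, adjusted p = 0.887 by edgeR). The sign of the Aox3 value turned in 4 of the 7 fits that left out 1 library. No 50-base word was shared between the longest coding transcripts of Aox1 and Aox3. The other 2 paralogs, Aox2 and Aox4, had too few counts to be tested.

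The rank of the 10 genes by CPM per kb differed between the groups mainly through Nnmt and Acmsd. The order within a group depends on the exon lengths used, most of all for Haao. In L-TBA, Qprt at 61.2 ± 3.44 and Kmo at 56.6 ± 2.82 were highest and overlapped, followed by Haao at 48.6 ± 3.33, Naprt at 37.9 ± 0.446 and Nnmt at 31.5 ± 3.47 (SD, n = 3). Nampt (18.3 ± 1.17), Aox1 (10.6 ± 0.905), Nmrk1 (7.97 ± 1.66) and Nadsyn1 (6.18 ± 0.311) came next, and Acmsd was last at 1.67 ± 0.404. Nmrk1 overlapped both Aox1 and Nadsyn1 there. In H-TBA, Nnmt led at 113.6 ± 8.92, ahead of Qprt at 57.9 ± 2.83 (SD, n = 4). Kmo at 44.9 ± 9.03 and Haao at 44.4 ± 8.99 did not differ beyond their spread there, nor did either differ from Naprt at 37.0 ± 3.03. Nampt was at 16.6 ± 3.03, and Acmsd, now seventh, at 11.2 ± 4.002 overlapped both Nampt and Aox1 (9.27 ± 1.47). Nadsyn1 (7.02 ± 0.483) and Nmrk1 (6.43 ± 0.437) were lowest and overlapped. Per kb, Nnmt was 5.48 to 8.28 times Nampt in the H-TBA libraries and 1.47 to 1.94 times in the L-TBA libraries.

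The profiles most like Nnmt over the 7 libraries were those of Fmo2, Dkk3, Sds, Crispld2 and Cav1. Likeness was the root mean square difference in log2 CPM after each gene was centred midway between its group means. That centring kept the group difference, and the log2 fold changes of these profiles were 1.60 to 1.99, beside 1.85 for Nnmt. The list therefore does not show that they vary together within a group. The ranking was taken over 9293 tested genes whose log2 CPM averaged 3 or more. Left out of it were the genes of this report, genes without a symbol, and those with a Gm, Rik, AC or AL name. The root mean square difference was 0.149 for the flavin monooxygenase gene Fmo2 and 0.187 for Dkk3, which encodes a secreted glycoprotein. For the serine dehydratase gene Sds, which is also on the list of periportal markers, it was 0.217. It was 0.225 for Crispld2 and 0.228 for Cav1, which encodes caveolin-1, and Acmsd was at 0.502. Fmo2 was at 65.1, 82.0, 71.0 and 75.0 CPM in H-TBA 1 to 4 and at 24.0, 23.6 and 22.6 CPM in L-TBA 1 to 3, highest in H-TBA 2 as Nnmt was.

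Other genes of NAD metabolism were tested in the same genome-wide fit. They were listed by function, but with earlier results of these data known. Of 58 listed genes, 57 matched a row and 50 could be tested. Of these 50, 4 rose and 11 fell at an adjusted p of 0.05 by edgeR, where 13.1% of all tested genes rose and 10.7% fell. The median log2 fold change of the 50 was -0.08. The split depended on the scaling: with library totals 12 rose and 4 fell, a scaling that moved the median of all genes by 0.16. The calls lost with library totals were those of Parp9, Parp12, Parp14, Sirt3, Nudt12, Nudt13 and Xdh, while Tdo2 (0.46, adjusted p = 0.0365) and Sirt1 (0.38, adjusted p = 0.0347) passed as higher. The number that fell was 7 when H-TBA 2 or H-TBA 4 was left out, and 6 when L-TBA 1 or L-TBA 2 was.

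**Figure D3:**
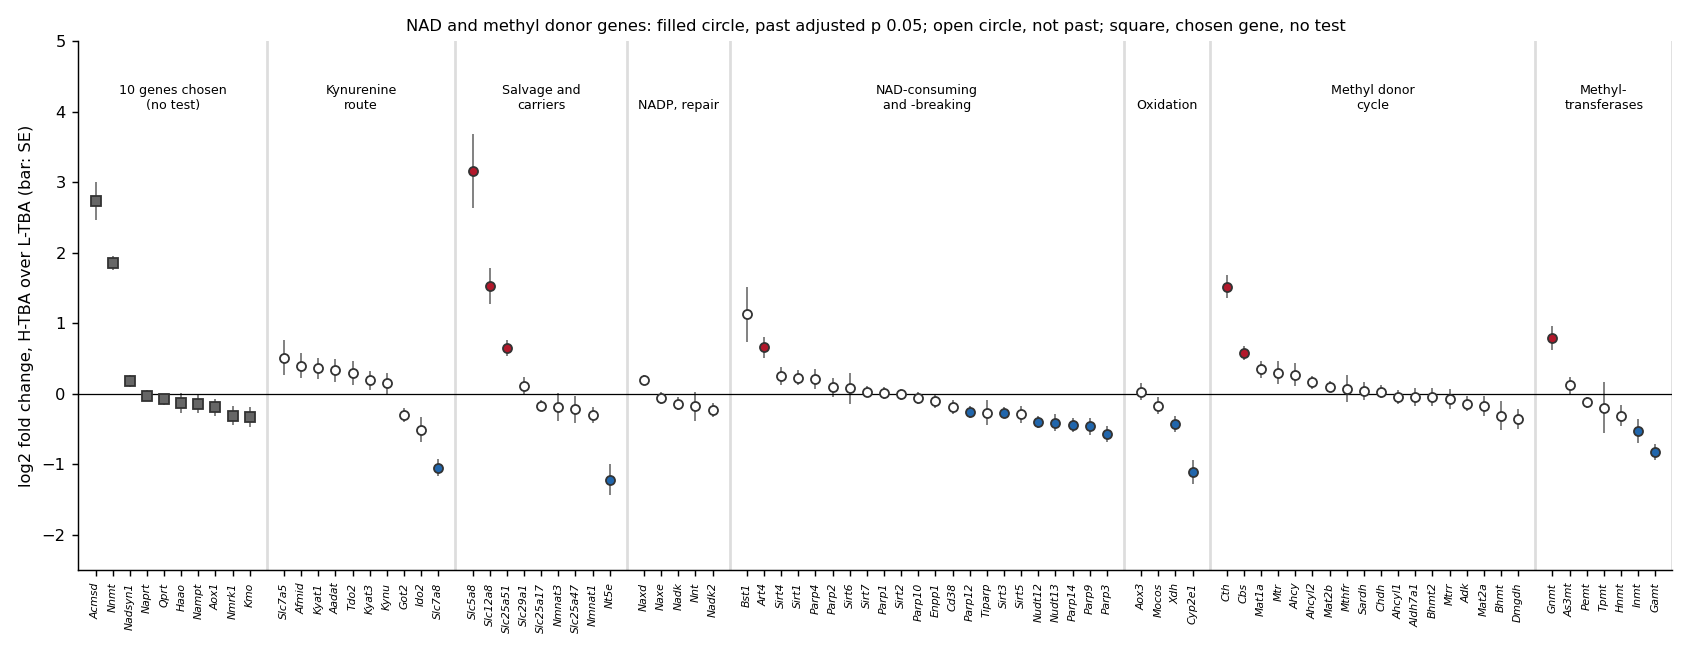
log2 fold change of H-TBA over L-TBA (y axis, bars are SE) for the 10 genes (grey squares, no test) and for tested genes of 7 other lists (circles). Filled circles passed an adjusted p of 0.05, red for higher and blue for lower; Slc5a8 is the highest of all and Nt5e the lowest.

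Of the 9 tested genes for salvage, adenylylation and transport, 3 rose and 1 fell, and the 3 that rose are carriers. The other 3 tested carriers, Slc29a1, Slc25a17 and Slc25a47, had log2 fold changes of 0.11 ± 0.13, -0.17 ± 0.08 and -0.22 ± 0.19 and did not pass (adjusted p = 0.614, 0.145 and 0.438); their names were chosen after the values were seen. Slc5a8, a sodium-coupled carrier of short monocarboxylates and nicotinate, was at 1.121, 2.44, 3.74 and 3.88 CPM in H-TBA 1 to 4 and at 0.259, 0.359 and 0.300 CPM in L-TBA. Its log2 fold change was 3.16 ± 0.52 (adjusted p = 0.00162), and it rested on 10 counts over the 3 L-TBA libraries and 131 over the 4 H-TBA libraries. Slc12a8, reported as a carrier of nicotinamide mononucleotide, rose from 2.92 ± 0.468 (SD, n = 3) to 8.43 ± 2.36 CPM (SD, n = 4), by 1.53 ± 0.26 on the log2 scale (adjusted p = 0.00189). H-TBA 1 was the lowest H-TBA library for both carriers. Slc25a51, the mitochondrial NAD carrier, rose from 54.5 ± 4.18 to 85.4 ± 11.2 CPM (0.65 ± 0.11, adjusted p = 0.0019).

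Nt5e, the ectoenzyme CD73 that dephosphorylates extracellular nucleotides, had 9.05 ± 2.59 CPM in L-TBA and fell to 3.88 ± 0.654 CPM in H-TBA (-1.22 ± 0.22, adjusted p = 0.00244). Nmnat1, which adenylylates the mononucleotides of all these routes in the nucleus, had a log2 fold change of -0.30 ± 0.11 that missed the threshold (adjusted p = 0.0753, and 0.0469 to 0.383 under the alternatives). Nmnat2, Nmrk2 and Slc22a13 had too few counts to be tested. None of the 5 genes of NADP synthesis, transhydrogenation and NAD(P)H repair passed: 0 rose and 0 fell by edgeR, DESeq2 or limma-voom, and 1 was higher and 1 lower at an unadjusted p of 0.05. The NAD kinase gene Nadk was at -0.14 ± 0.09 (adjusted p = 0.318) and at 0.01 with library totals.

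Of 10 tested genes around the kynurenine route, 0 rose and 1 fell by edgeR. At an unadjusted p of 0.05, 2 were higher and 3 lower, and DESeq2 and limma-voom each had 0 higher and 3 lower. Slc7a8, a carrier of neutral amino acids that include tryptophan, had 15.8 ± 0.669 CPM in L-TBA and fell to 7.63 ± 0.787 CPM in H-TBA (-1.05 ± 0.12, adjusted p = 0.000303). Tdo2, the tryptophan dioxygenase that opens the route, was between 1308 and 1862 CPM in H-TBA and between 992 and 1553 CPM in L-TBA. Its log2 fold change of 0.30 ± 0.17 did not pass (adjusted p = 0.227), nor did the 0.15 ± 0.15 of the kynureninase gene Kynu (adjusted p = 0.525). Ido1 had 0 to 2 counts per library.

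Among 22 tested genes of NAD-consuming and NAD-breaking enzymes, 1 rose and 7 fell. Those that fell did so by less than 2-fold. Parp3, a polymerase linked to DNA repair, was at 39.3, 30.9, 31.0 and 41.1 CPM in H-TBA 1 to 4 and at 57.2, 51.8 and 49.3 CPM in L-TBA (log2 fold change -0.57 ± 0.11, adjusted p = 0.00472). Parp14 and Parp9, interferon-induced members of the family, fell by 0.44 ± 0.10 and 0.46 ± 0.12 on the log2 scale (adjusted p = 0.00803 and 0.0202). Nudt12 and Nudt13, hydrolases that split NAD(H), fell by 0.40 ± 0.09 and 0.41 ± 0.12 (adjusted p = 0.00778 and 0.0313). The mitochondrial deacetylase gene Sirt3 and Parp12 fell by 0.27 ± 0.08 and 0.26 ± 0.08 (adjusted p = 0.0397 and 0.0428). Art4, of the mono-ADP-ribosyltransferase family, rose from 8.21 ± 1.76 to 13.04 ± 0.542 CPM (0.66 ± 0.15, adjusted p = 0.00844). Sirt1 (0.23 ± 0.11), Cd38 (-0.19 ± 0.10) and Parp1 (0.01 ± 0.08) did not pass (adjusted p = 0.15, 0.215 and 0.95), and the sign for Parp1 turned in 3 of the 7 fits that left out 1 library. Leaving out any 1 library except H-TBA 1 ended the calls for Sirt3 and Parp12. Leaving out H-TBA 2, H-TBA 4, L-TBA 1 or L-TBA 2 ended those for Parp9 and Nudt13, and leaving out H-TBA 3 also ended that for Nudt13. Over the alternatives, adjusted p ran from 0.0197 to 0.256 for Sirt3, 0.0162 to 0.411 for Parp12, 0.0019 to 0.0759 for Parp9 and 0.0249 to 0.209 for Nudt13.

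Of 4 tested genes of nicotinamide and aldehyde oxidation beside Aox1, 0 rose and 2 fell by edgeR, DESeq2 and limma-voom, with 0 higher at an unadjusted p of 0.05. Cyp2e1, a pericentral P450 that can oxidise nicotinamide, had 7354 ± 623 CPM in L-TBA and fell to 3413 ± 785 CPM in H-TBA (-1.11 ± 0.17, adjusted p = 0.00114). Xdh, the xanthine dehydrogenase, fell from 141 ± 11.5 to 105 ± 13.6 CPM (-0.43 ± 0.11, adjusted p = 0.0162), a call that ended when L-TBA 1 or L-TBA 2 was left out (0.00334 to 0.076 under the alternatives).

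Because the Nnmt enzyme spends S-adenosylmethionine, 26 genes of the methyl donor cycle and of other small-molecule methyltransferases were listed. This list too was drawn up with earlier results known, and all 26 genes could be tested. Of these, 3 rose and 3 fell, where 13.1% of all tested genes rose and 10.7% fell. The median log2 fold change of the 26 was -0.04. With library totals 7 rose, and 5 fell without H-TBA replicate 1. Cth and Cbs, whose enzymes draw homocysteine off into cysteine synthesis, rose. Cth was at 756, 846, 621 and 647 CPM in H-TBA 1 to 4 and at 229.8, 210.0 and 311 CPM in L-TBA (log2 fold change 1.52 ± 0.16, adjusted p = 0.000195). Cbs rose by 0.58 ± 0.10 (adjusted p = 0.00217). Gnmt, the glycine N-methyltransferase that uses surplus S-adenosylmethionine in liver, rose from 695 ± 164 to 1199 ± 184 CPM (0.79 ± 0.17, adjusted p = 0.0063).

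Gamt, of creatine synthesis, and Inmt, whose enzyme methylates indoleamines, were among the methyltransferase genes that fell. Their log2 fold changes were -0.83 ± 0.11 and -0.53 ± 0.17 (adjusted p = 0.000561 and 0.0388). The Inmt call ended with library totals and when any library but H-TBA 1 or L-TBA 2 was left out (0.00555 to 0.165 under the alternatives). Of the 8 methyltransferase genes in this list, 1 rose and 3 fell, so Gnmt was the only one of them that passed as higher. Mat1a, which makes the liver's S-adenosylmethionine, was between 4590 and 5867 CPM in H-TBA and between 3833 and 4524 CPM in L-TBA. Its log2 fold change of 0.35 ± 0.12 missed the threshold (adjusted p = 0.0642) and passed it in 5 of the 14 alternatives (0.00219 to 0.271). Ahcy, which clears the product S-adenosylhomocysteine, was at 0.27 ± 0.16 (adjusted p = 0.246) and passed with library totals (0.42, adjusted p = 0.0298).

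Markers of other cell types and of the lobule's zones moved with the groups too. All 8 bile duct markers rose, and their summed level was 1038 to 1970 CPM in H-TBA and 494 to 771 CPM in L-TBA. Most of that sum in every library was Spp1, at 786 to 1451 CPM in H-TBA and 386 to 622 CPM in L-TBA. H-TBA 1 had the lowest bile duct sum of its group, at 1038 CPM against 1664 to 1970 CPM, and a periportal sum of 14633 CPM against 11333 to 14707 CPM. Its Nnmt was 171 CPM and its Acmsd 28.1 CPM. H-TBA 3 had the highest bile duct sum (1970 CPM) and the lowest periportal sum of the group (11333 CPM), with Nnmt at 172 CPM and Acmsd at 26.3 CPM. Of 10 periportal hepatocyte markers 6 rose and 2 fell, with sums of 11333 to 14707 CPM in H-TBA and 6690 to 8939 CPM in L-TBA. Of 9 tested pericentral markers, which include Cyp2e1, 0 rose and 6 fell (edgeR; 0 higher at an unadjusted p of 0.05 and by DESeq2 or limma-voom), with sums of 3516 to 6297 CPM and 9963 to 11361 CPM. Stellate cell and fibroblast markers had 4 of 9 higher and 1 lower, and their sums overlapped at 850.5 to 955 CPM and 561 to 1008 CPM. Of 7 Kupffer cell markers 3 fell, and the sums were 235 to 322 CPM in H-TBA and 433 to 663 CPM in L-TBA. Of 5 fat cell markers, Adipoq, Plin1 and Lep had 0 or 1 count in every library and Retn had 7 counts in H-TBA and 0 in L-TBA, summed over each group. Cidec, a lipid droplet gene that fatty hepatocytes also express, was the only one tested and fell (-0.87 ± 0.15, adjusted p = 0.00231), from 133 to 169 CPM in L-TBA to 62.0 to 100.5 CPM in H-TBA. The part of any of these cell types in the Nnmt and Acmsd differences was not tested.

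**Figure D4:**
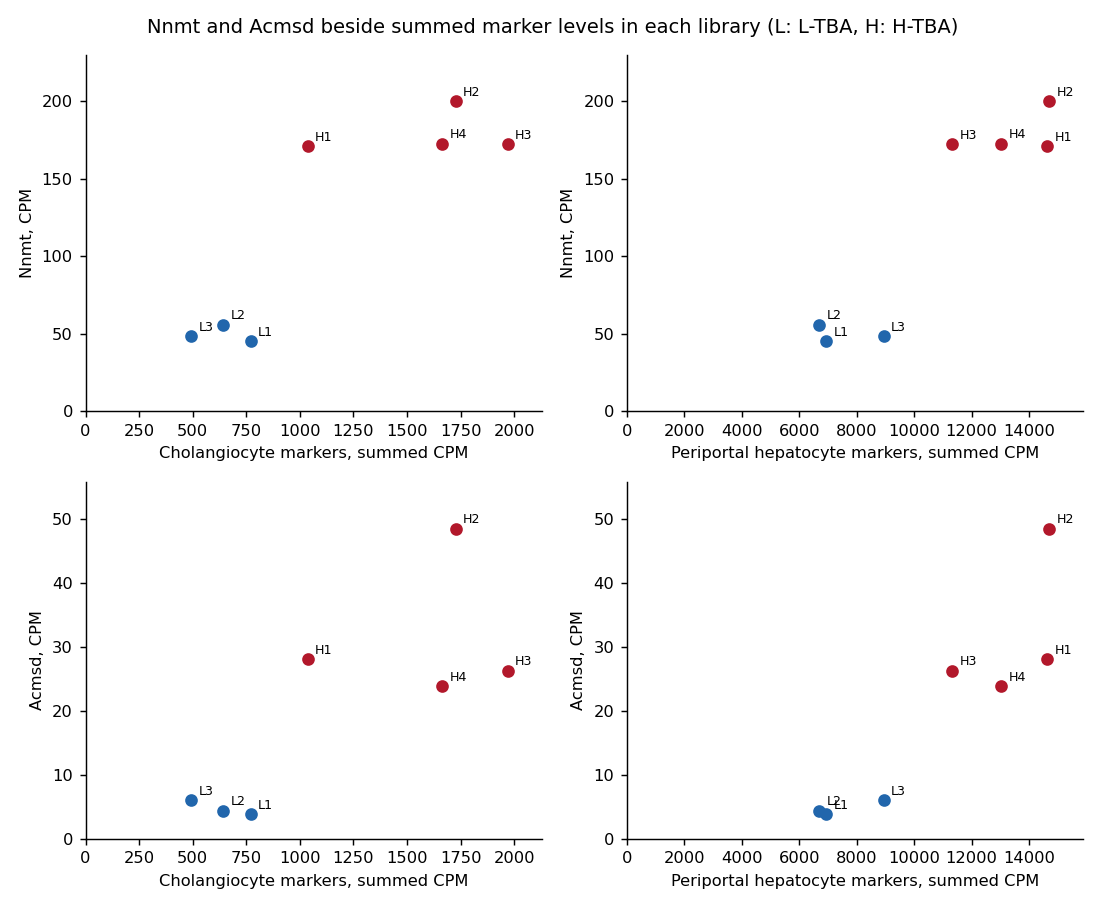
CPM of Nnmt (top) and Acmsd (bottom) against the summed CPM of bile duct (cholangiocyte) markers (left) and periportal hepatocyte markers (right) in each library, L-TBA in blue and H-TBA in red. Most of the bile duct sum is Spp1. The H-TBA libraries lie above L-TBA on every axis; among them H-TBA 1 has the lowest bile duct sum (1038) and the second highest periportal sum (14633).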

How the data were processed

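For 7 liver libraries, the authors deposited a table of raw counts by Ensembl gene identifier, whole numbers without scaling. CASAVA, TopHat2 2.0.11, DESeq2 1.18.1 and the build mm9 are named, without roles, per the submitters' processing notes. Which tool counted, with which gene models and whether by strand, is unstated in the sources used here.

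Symbols came from a table of gene names by Ensembl identifier (32897 of 37620 rows). Exon lengths and overlaps came from GENCODE M21, a GRCm38 annotation. Genes passing filterByExpr (minimum count 10, minimum total 15) were fitted across all genes with the quasi-likelihood test of edgeR 4.0.16 (R 4.3.3), TMM scaling and no term beside the group. Adjustment was by Benjamini-Hochberg, at 0.05. SEs came from the fold change and the F statistic. The fit was also run on simulated counts, and no result of that run is used here. No pair of libraries in a group was close enough to be 1 library (chi-square over its degrees of freedom 5.71 or more in 9 pairs).

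The members and lists were chosen with earlier results of these data known. The text names all 10 members, every listed pathway gene past the threshold, 11 set genes whatever their result, and the 5 profiles nearest to Nnmt, except that 1 gene past the threshold and some promoter sequence are not reported here. Alternatives were DESeq2 1.42.0, limma-voom (limma 3.58.1) with quality weights, DESeq2 size factors, library totals, no filter, a filter of 50 counts in 3 libraries, a replicate block, and leaving out each library. Marker lists beside those in the report had 3 lower of 6 endothelial and 1 lower of 3 tested neutrophil genes. Among them 0 rose by edgeR, DESeq2 or limma-voom, with 1 endothelial gene higher at an unadjusted p of 0.05. Of 6 lymphocyte genes 0 passed by edgeR, DESeq2 or limma-voom, with 1 lower unadjusted. Figures used matplotlib 3.10.9.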

Additional observations from a re-analysis of the deposited data

Results flagged for a closer look

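In 3 of the 41 genes checked for a library standing away from the rest of H-TBA, the gap was large for 4 libraries, and chance alone flags about 5 in 100 such groups. Nnmt was at 200.1 CPM in H-TBA 2 and at 171 to 172.5 CPM in the other 3 H-TBA libraries. Nt5e was at 4.86 CPM in H-TBA 4 and at 3.50 to 3.64 CPM in the others. Nudt13 was at 9.48 CPM in H-TBA 2 and at 11.02 to 11.3 CPM in the others.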

How the results depend on the processing

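Over 14 alternatives, the log2 fold change lay between 1.78 and 2.01 for Nnmt and between 2.47 and 2.94 for Acmsd. The Nnmt value of 2.01 came with library totals, a shift larger than the spread between replicates. All genes past the threshold numbered 3638. They numbered 4423 with limma-voom, 4552 without H-TBA replicate 1, and 2574 to 2777 when any other library was left out. Under the replicate block they numbered 1920. Same-numbered libraries of the 2 groups did not deviate together (correlations -0.10, -0.06 and -0.06), so the shared numbers were not taken as pairs; H-TBA 4 adds nothing to that fit. With library totals, 12 other NAD genes were higher and 4 lower, and 7 methyl donor and methyltransferase genes were higher. Leaving out 1 library gave 6 to 14 lower NAD genes and 2 to 5 lower methyl donor and methyltransferase genes. The sign turned for Nadk with library totals (0.01), and without single libraries for Parp1 (-0.02 to 0.06) and Aox3 (-0.04 to 0.16). The cause was not tested. Depth limits Slc5a8, with 10 counts over the 3 L-TBA libraries; the stricter filter removed it.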
